A study of Mus musculus with 8 samples.

Results

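The genes described here are 10 genes of arginine use and of alternative macrophage activation, taken by symbol out of 52636 gene IDs: Arg1, Arg2, Nos2, Odc1, Gpnmb, Mrc1, Chil3, Retnla, Clec10a and Cd163. They were measured in polyadenylated RNA from 8 mixed co-cultures of mouse cells. In 4 co-cultures, splenocytes (the leukocytes of the spleen) had been kept with trogocytic colon cancer cells, and in the other 4 with non-trogocytic ones, the control group. Trogocytosis is the uptake of membrane pieces, with their proteins, from a neighbouring cell. In both groups the strain was C57BL/6, the splenocytes came from Actin-GFP reporter mice, and the cancer cells derived from organoids carrying tdTomato, injected into the spleen and recovered as liver metastases. The cancer cells were sorted by tdTomato and by CD4, a marker of helper T cells, mixed at 1 cancer cell to 50 splenocytes and kept for 5 days. The sources used here do not give the promoter that drives tdTomato, nor whether replicates came from separate animals. Any p-value therefore covers no more than the spread among these libraries, part of which may be technical. The genes were chosen by their TPM in these same 8 libraries, as levels and as ratios to Lyz2 and Csf1r. Their levels and ratios in the groups are therefore a description and carry no test.

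Macrophages can use arginine in competing ways. Nitric oxide synthase 2, the product of Nos2 and a hallmark of classical activation by interferon and bacterial products, turns arginine into nitric oxide and citrulline. Arginase 1 in the cytosol (Arg1) and arginase 2 in mitochondria (Arg2) instead turn it into ornithine and urea, and ornithine decarboxylase (Odc1) makes the polyamine putrescine from ornithine. Alternative activation by interleukin 4 or 13 acts through the transcription factor STAT6 and is marked in mice by Arg1, by the secreted proteins of Chil3 (Ym1) and Retnla (resistin-like alpha), and by the lectin receptors of Mrc1 (CD206) and Clec10a. Cd163 encodes the haemoglobin scavenger receptor of tissue macrophages, and Gpnmb a transmembrane glycoprotein of lysosome-rich macrophages. In tumours, macrophages that express Arg1 are known for depleting arginine, which T cells need.

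Promoters are shown for Gpnmb and Odc1, which had the highest levels of the 10 genes and differed in opposite directions, and for Retnla, whose promoter holds a STAT6 motif although the gene was listed at 0 everywhere. They are from RefSeq, build GRCm38.p6, and run from 250 bases before to 50 bases after the start site, on the + strand. Capitals mark matches to the motifs searched on both strands: STAT6 (TTC and GAA, 4 bases apart), the E-box of the lysosomal factors MITF and TFE (CACGTG), their M-box core (CATGTG), AP-1 (TGANTCA) and the TATA box (TATAAA). The Gpnmb promoter lies at chr6:49036268-49036567, that of Odc1 at chr12:17544623-17544922 and that of Retnla at chr16:48842359-48842658.
Gpnmb: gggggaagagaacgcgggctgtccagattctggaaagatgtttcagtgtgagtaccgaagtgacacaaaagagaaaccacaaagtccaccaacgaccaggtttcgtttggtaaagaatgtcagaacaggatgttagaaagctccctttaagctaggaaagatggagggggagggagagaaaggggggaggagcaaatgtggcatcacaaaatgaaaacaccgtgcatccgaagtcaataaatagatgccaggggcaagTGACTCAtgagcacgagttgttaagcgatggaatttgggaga
Odc1: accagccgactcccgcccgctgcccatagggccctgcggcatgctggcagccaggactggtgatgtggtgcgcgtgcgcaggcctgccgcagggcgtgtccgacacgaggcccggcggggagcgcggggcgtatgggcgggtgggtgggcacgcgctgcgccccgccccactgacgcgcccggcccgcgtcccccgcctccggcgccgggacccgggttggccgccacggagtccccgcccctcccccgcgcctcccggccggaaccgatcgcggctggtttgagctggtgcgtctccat
Retnla: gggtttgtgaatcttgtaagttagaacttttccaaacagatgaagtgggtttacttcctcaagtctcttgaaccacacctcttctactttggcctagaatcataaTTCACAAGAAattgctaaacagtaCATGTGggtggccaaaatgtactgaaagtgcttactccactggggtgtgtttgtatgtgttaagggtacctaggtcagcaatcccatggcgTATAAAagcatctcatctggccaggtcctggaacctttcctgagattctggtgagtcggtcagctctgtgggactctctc
The RefSeq table matched 6 of the 10 genes: Odc1, Gpnmb, Mrc1, Chil3, Retnla and Cd163. The Gpnmb promoter held 1 AP-1 match, starting at base 9 after the start site, and AP-1 letters occur in 7.81% of all 32851 promoters of this length. The Retnla promoter held a STAT6 match at −145, an M-box core at −121 and a TATA box at −30. Those letters occur in 6.95%, 14.2% and 13.6% of all promoters, and no 2 of these matches overlap. Mrc1 held M-box cores at −186 and −101, and Chil3 a TATA box at −3. The promoters of Odc1 and Cd163 held none of the 5 motifs. The Odc1 promoter had a GC content of 78.0%, against a median of 52.7% over all promoters. A match describes letters only and is no evidence of binding.

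Values are TPM, a level per length of transcript scaled to the same total in every library. Aligned bases ran from 1.39 to 1.84 Gb per library, which places 5.83 to 8.45 read pairs behind 1 TPM of a transcript of 2 kb. Both cell sources were present in every library. The summed level of 10 colon epithelium markers ran from 3303 to 8833 TPM in non-trogocytic and from 5319 to 6945 TPM in trogocytic co-cultures. That of 14 macrophage and monocyte markers ran from 5040 to 22924 TPM and from 2585 to 8366 TPM. All 13 of the macrophage markers that were tested had a difference below 0 (trogocytic minus non-trogocytic), with a median of −0.92 on the log2(TPM + 1) scale, and none was called. RNA came from whole mixtures, so fewer cells of a type and less RNA per cell cannot be told apart.

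Of the 10 genes, 6 reached at least 1 TPM in 4 or more libraries and were tested with the other genes: Arg1, Arg2, Odc1, Gpnmb, Mrc1 and Chil3. Differences below are trogocytic minus non-trogocytic means of log2(TPM + 1), with the SE from limma (n = 4 per group). Over these 6 genes, 4 differences lay below 0 and 2 above, with a median of −0.70, against a median of 0.01 over all 11433 tested genes, of which 49.3% lay below 0. None of the 6 was called by limma at an adjusted p below 0.05, where 0.0525% of all genes were called. At an unadjusted p below 0.05 there were 2 of the 6, against 4.59% of all genes. The groups did not overlap in 1 of the 6, Arg1, against 2.68% of all genes. Because the genes were chosen with this contrast in view, these shares support nothing.

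**Figure D1:**
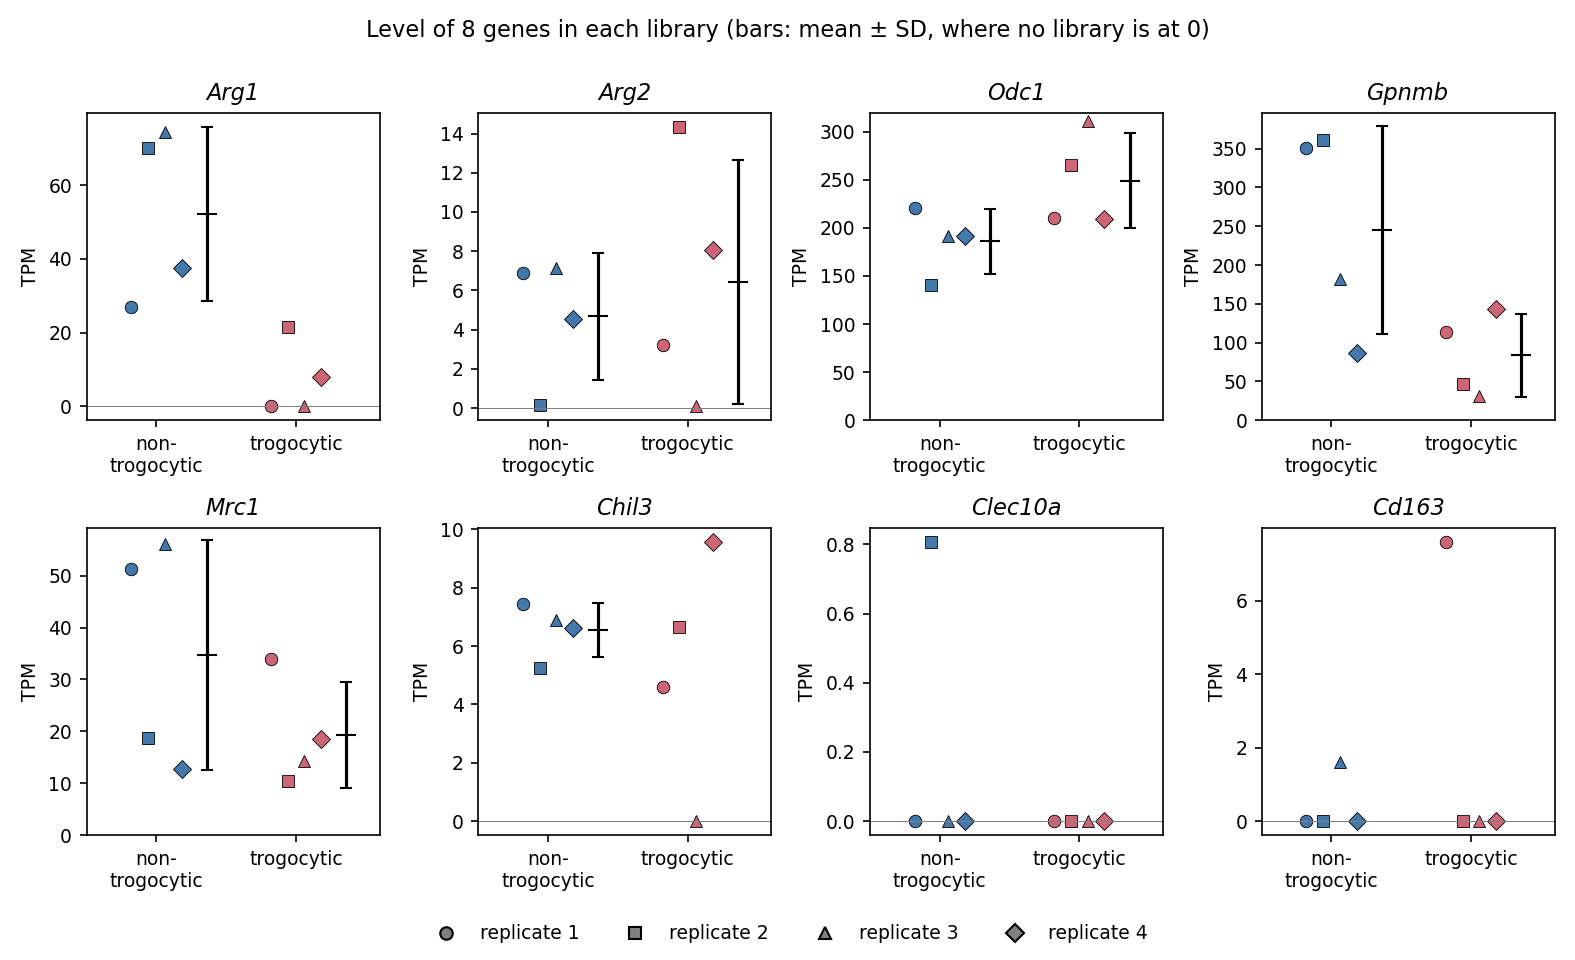
TPM (y axis) of 8 genes in each library, by group (x axis), with 1 symbol per replicate. Bars give the mean ± SD of 4 libraries where none was at 0. Arg1 is the 1 gene among the 6 tested whose groups do not overlap. Nos2 and Retnla are not drawn because they were listed at 0 in all 8 libraries.

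Arg1 (ENSMUSG00000019987.9, GRCm38 chromosome 10, 24915221 to 24927484, - strand) stood at 26.9, 70.3, 74.4 and 37.5 TPM in non-trogocytic replicates 1 to 4. In trogocytic co-cultures it was listed at 0 in replicates 1 and 3 and stood at 21.6 TPM in replicate 2 and 7.99 TPM in replicate 4. Every non-trogocytic library thus lay above every trogocytic one, though the gap between 21.6 and 26.9 TPM was narrow. If coverage was even over the longest transcript of 1477 bases, the non-trogocytic values rest on about 111 to 298 read pairs and the 2 trogocytic values above 0 on about 78.9 and 24.5. Its zeros are among the values that the choice of genes used. Every one of 16 housekeeping genes examined was above 0 in all 8 libraries. Such genes are picked for wide expression, so this does not show how unusual the Arg1 zeros are. The difference was −3.70 ± 0.95 (SE), and its size depends on the pseudocount, running from −5.38 with 0.1 to −2.47 with 5.

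Arginase 1 is also abundant in hepatocytes, where it closes the urea cycle. The cancer cells had come from the liver, through the sort on tdTomato and CD4. Of 7 hepatocyte markers, 5 were detected, all in non-trogocytic replicate 3 alone, the library with the highest Arg1. There Apoa1 stood at 55.96 TPM, Alb at 36.5 TPM, Fgb at 26.95 TPM, Ttr at 22.4 TPM and Serpina1a at 1.29 TPM. The summed level was 143 TPM in that library and 0 in the other 7. Cps1, which encodes the entry enzyme of the hepatic urea cycle, and Tat were listed at 0 in all 8. Without that library the Arg1 difference was −3.49, and the 3 remaining non-trogocytic libraries, with hepatocyte markers at 0, stood at 26.9, 70.3 and 37.5 TPM. The part of hepatocyte RNA in the Arg1 values was not tested. The 6 markers of basophils, eosinophils and mast cells summed to 2.10 to 57.995 TPM in non-trogocytic and to 0 to 99.6 TPM in trogocytic libraries, with Epx, Siglecf and Fcer1a at 0 throughout. The highest sum, in trogocytic replicate 3, was mostly Prg2 (93.6 TPM). The part of these cells was not tested either.

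Arg2 (ENSMUSG00000021125.6, chromosome 12, 79130777 to 79156301, + strand), the mitochondrial isozyme, did not share the pattern of Arg1. It stood at 6.88, 0.169, 7.17 and 4.54 TPM in non-trogocytic and at 3.19, 14.4, 0.0893 and 8.08 TPM in trogocytic replicates 1 to 4. Both groups held 1 library near 0. They overlapped, and trogocytic replicates 2 and 4 lay above every non-trogocytic library. The difference of 0.15 ± 0.89 (SE) changed sign without non-trogocytic replicate 2 (−0.50), trogocytic replicate 2 (−0.38) or trogocytic replicate 4 (−0.13). Of its 1428 exonic bases, 285 lie within exons of Vti1b, an abundant gene of the opposite strand (mean 227.7 TPM). The sources used here do not state whether counting used strand, so part of the Arg2 signal is uncertain.

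Odc1 (ENSMUSG00000011179.8, chromosome 12, 17544794 to 17551505, + strand), the rate-limiting enzyme of polyamine synthesis and an enzyme of most growing cells, leaned the other way. It stood at 221, 140, 191 and 191 TPM in non-trogocytic replicates 1 to 4. In trogocytic replicates 1 to 4 it stood at 211, 266, 311 and 209 TPM. The ranges overlapped through non-trogocytic replicate 1 alone, and the difference was 0.42 ± 0.21 (SE). Every value rests on at least about 670 read pairs. The group levels were 185.9 ± 33.3 and 249.1 ± 49.1 TPM (SD, n = 4 each).

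Nos2 (chromosome 11, 78920787 to 78960254) was listed at 0 in all 8 libraries, so the enzyme that competes with the arginases for arginine had no measured transcript in either group. Of the 4 members that were not tested, Retnla (chromosome 16, 48842552 to 48844461) was also listed at 0 in all 8. Clec10a (chromosome 11, 70156197 to 70170834) was above 0 in non-trogocytic replicate 2 alone, at 0.808 TPM. Cd163 (chromosome 6, 124304656 to 124330527) reached 1.62 TPM in non-trogocytic replicate 3 and 7.62 TPM in trogocytic replicate 1, with the other 6 libraries at 0. Dendritic cells also use Clec10a, and their 8 markers summed to 1.62 to 24.7 TPM in non-trogocytic and 21.0 to 46.9 TPM in trogocytic libraries. In all libraries but non-trogocytic replicate 4, most of that sum was Ccr7, which naive T cells also express, and Cd209a. Xcr1 and Clec9a were at 0 in all libraries, and Itgax stood at 0.258 to 2.81 TPM in non-trogocytic and at 0 to 0.218 TPM in trogocytic libraries. The part of dendritic cells in these values was not tested. The filter on low values left these 4 out of the tests, and Nos2 and Retnla had no value to compare.

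Gpnmb (ENSMUSG00000029816.10, chromosome 6, 49036546 to 49070929, + strand) was the most abundant of the macrophage members. It stood at 351, 361, 182 and 86.3 TPM in non-trogocytic and at 114, 46.4, 31.4 and 143 TPM in trogocytic replicates 1 to 4. Non-trogocytic replicates 1 to 3 lay above every trogocytic library, and replicate 4 lay inside the trogocytic range. The group levels were 245 ± 134 and 83.6 ± 53.4 TPM (SD, n = 4 each), a difference of −1.58 ± 0.56 (SE) that ran from −2.01 to −1.20 when 1 library was left out.

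Mrc1 (ENSMUSG00000026712.3, chromosome 2, 14229392 to 14332057, + strand), the mannose receptor, stood at 51.2, 18.6, 56.2 and 12.8 TPM in non-trogocytic replicates 1 to 4. In trogocytic replicates 1 to 4 it stood at 33.9, 10.4, 14.3 and 18.5 TPM. The groups overlapped, with 2 high and 2 low libraries among the non-trogocytic ones, and the difference was −0.69 ± 0.53 (SE). It ran from −1.07 without non-trogocytic replicate 4 to −0.38 without non-trogocytic replicate 3. Sinusoidal endothelium of liver and spleen also uses this receptor. Of 6 endothelial markers Kdr, Stab2 and Clec4g were listed at 0 in all libraries, and the summed level of the list ran from 1.87 to 5.67 TPM in non-trogocytic and from 0 to 8.60 TPM in trogocytic libraries. The part of endothelium in the Mrc1 values was not tested.

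Chil3 (ENSMUSG00000040809.10, chromosome 3, 106147554 to 106167564, - strand), which encodes the chitinase-like protein Ym1 of macrophages and neutrophils, was low in both groups. It stood at 7.45, 5.26, 6.88 and 6.62 TPM in non-trogocytic replicates 1 to 4. In trogocytic replicates 1, 2 and 4 it stood at 4.60, 6.65 and 9.58 TPM, and in replicate 3 it was listed at 0. The difference of −0.70 ± 0.69 (SE) rested on that library and was 0.03 without it. Its close paralog Chil4 stayed below 0.1 TPM in all but 1 library (0.103 TPM), and division of reads between the copies is uncertain. The summed level of 10 neutrophil markers ran from 408 to 938 TPM in non-trogocytic and from 515 to 782 TPM in trogocytic co-cultures. In every library most of that sum was Ly6g, S100a8 and S100a9. Csf3r was listed at 0 in all 8, and Ltf, Elane, Mpo and Cxcr2 did not reach the level for testing. The part of neutrophils in the Chil3 values was not tested.

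The genes were next expressed relative to 2 myeloid genes of the same library. Lyz2, the lysozyme of macrophages, monocytes and neutrophils, stood at 12057, 4920, 6060 and 2636 TPM in non-trogocytic and at 3846, 1315, 1175 and 2999 TPM in trogocytic replicates 1 to 4. Its difference was −1.43 ± 0.48 (limma adjusted p = 0.9498, lower in 2 of 4 trogocytic libraries than in any non-trogocytic one). Csf1r, the receptor for the macrophage growth factor CSF1, stood at 4.88, 1.97, 0.727 and 1.79 TPM in non-trogocytic and at 0.471, 0.175, 0.630 and 0.559 TPM in trogocytic replicates 1 to 4. It did not reach the level for testing, and its values rest on about 2.9 to 76.7 read pairs, so ratios to it carry a large counting error. Csf1r is a defining macrophage gene and was nearly absent here beside the high Lyz2 and Cd68 (312 to 2039 TPM).

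Relative to Lyz2, the Gpnmb values of both groups lay together. It stood at 2.91%, 7.33%, 3.01% and 3.27% of the Lyz2 level in non-trogocytic and at 2.96%, 3.53%, 2.67% and 4.77% in trogocytic replicates 1 to 4. Apart from non-trogocytic replicate 2, all libraries lay between 2.67% and 4.77%. The difference of the log2 ratio, with 1 TPM added to both genes, was −0.15 ± 0.36 (SE), compared with −1.58 for the level. It became 0.16 without non-trogocytic replicate 2. The value moved with the reference gene: the difference relative to Cd68, a lysosomal protein of macrophages, was −0.93, and relative to Ptprc, which marks all leukocytes, it was −2.01.

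Arg1 did not follow Lyz2 in this way. It stood at 0.223%, 1.43%, 1.23% and 1.42% of Lyz2 in non-trogocytic replicates 1 to 4. In trogocytic replicates it stood at 0 in replicates 1 and 3, at 1.65% in replicate 2 and at 0.266% in replicate 4. The groups that were separate in level therefore overlapped in the ratio, with trogocytic replicate 2 the highest of all 8 libraries. The log2 ratio differed by −2.27 ± 1.45 (SE). When 1 library was left out, this ran from −3.34 (without trogocytic replicate 2) to −1.33 (without trogocytic replicate 1). Its size depends on the pseudocount, at −3.95 with 0.1 and −1.04 with 5. With 1 TPM added, the difference was −3.04 relative to Cd68 and −4.13 relative to Ptprc.

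Mrc1 and Odc1 made up a larger part relative to Lyz2 in most trogocytic libraries. Mrc1 stood at 0.425%, 0.379%, 0.927% and 0.486% of Lyz2 in non-trogocytic and at 0.881%, 0.790%, 1.22% and 0.618% in trogocytic replicates 1 to 4, a log2 ratio difference of 0.74 ± 0.35 (SE). All trogocytic values lay above those of non-trogocytic replicates 1, 2 and 4, and replicate 3 lay among them. The direction turned relative to Cd68 (−0.04) and Ptprc (−1.12). Odc1 stood at 1.83% to 7.25% of Lyz2 in non-trogocytic and at 5.48% to 26.5% in trogocytic libraries, with a difference of 1.85 ± 0.70 (SE) and −0.01 relative to Ptprc. Odc1 is not a myeloid marker. For Chil3 the ratio ran from 0.0618% to 0.251% and from 0 to 0.506%, and for Arg2 from 0.00343% to 0.172% and from 0.0076% to 1.09%, so both overlapped widely.

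**Figure D2:**
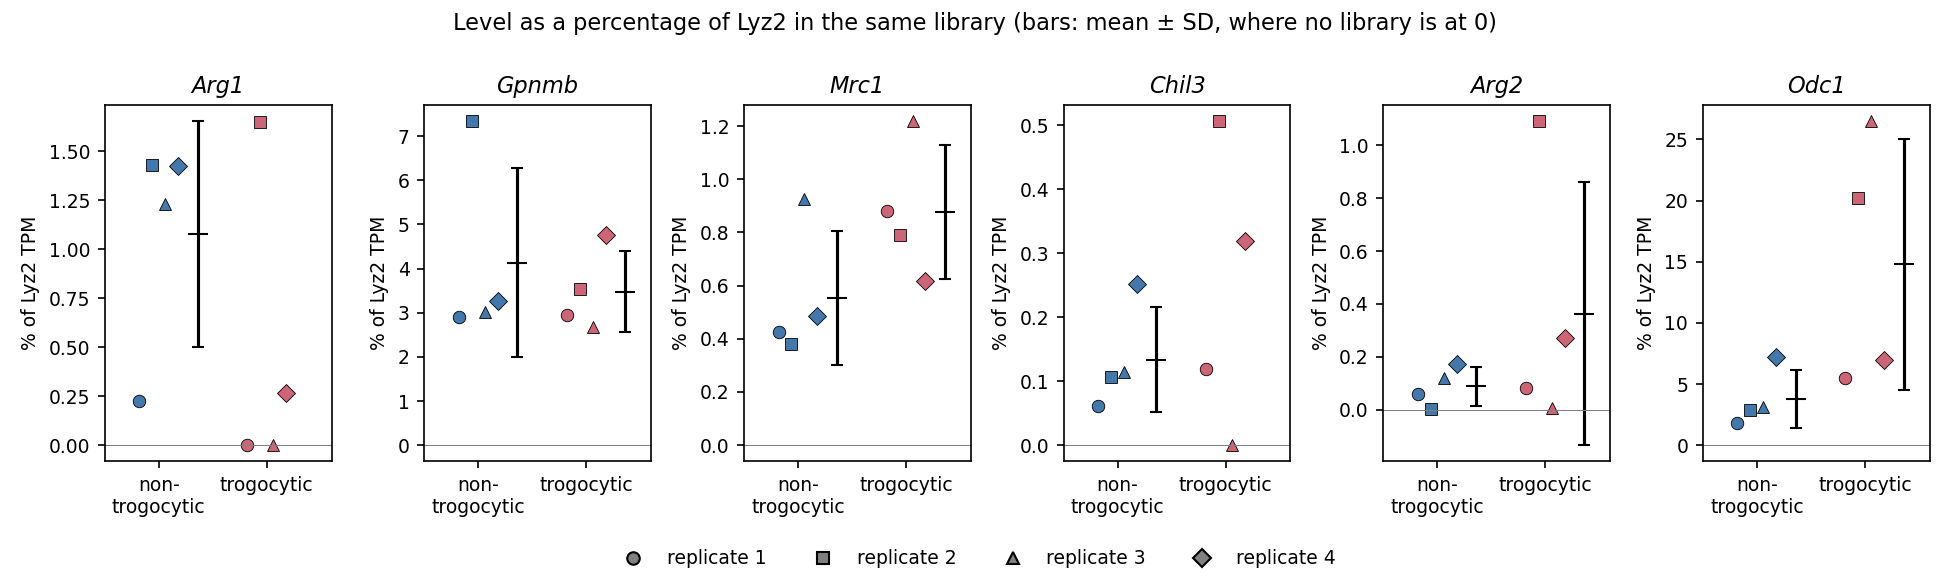
Level of each of 6 genes as a percentage of the Lyz2 TPM of the same library (y axis), by group (x axis), with 1 symbol per replicate and the mean ± SD of 4 libraries where none was at 0. The Gpnmb ratios of both groups lie together apart from non-trogocytic replicate 2 at 7.33%, and those of Arg1 range from 0 to 1.65%.

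Relative to Csf1r, Odc1 was the 1 gene whose groups did not overlap, at 45.3 to 263 times the Csf1r level in non-trogocytic and 374 to 1522 times in trogocytic libraries. For Gpnmb these ratios were 48.2 to 251 and 49.8 to 266, for Mrc1 7.16 to 77.3 and 22.7 to 71.98, and for Arg1 5.52 to 102 and 0 to 124. The last 3 genes overlapped over most of their ranges. Csf1r itself stood lower in every trogocytic library than in any non-trogocytic one, whereas the levels of Odc1 overlapped. The share of all genes whose groups separate relative to Csf1r was not computed. The separation of Odc1 in this ratio is therefore not read as a trait of Odc1.

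The members varied in different ways across the libraries. With the group means removed, the Pearson correlation of log2(TPM + 1) with Lyz2 over the 8 libraries was 0.86 for Gpnmb and 0.84 for Mrc1, while it was 0.43 for Chil3, 0.25 for Arg2, −0.19 for Arg1 and −0.25 for Odc1. These are descriptions over 8 libraries that share the changing makeup of the mixture. Gpnmb and Mrc1 correlated at 0.54 with each other, Gpnmb and Arg1 at 0.07, Arg1 and Arg2 at 0.57 and Gpnmb and Odc1 at −0.63. With the group means kept, the correlation with Lyz2 was 0.92 for Gpnmb, 0.84 for Mrc1 and 0.45 for Arg1.

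**Figure D3:**
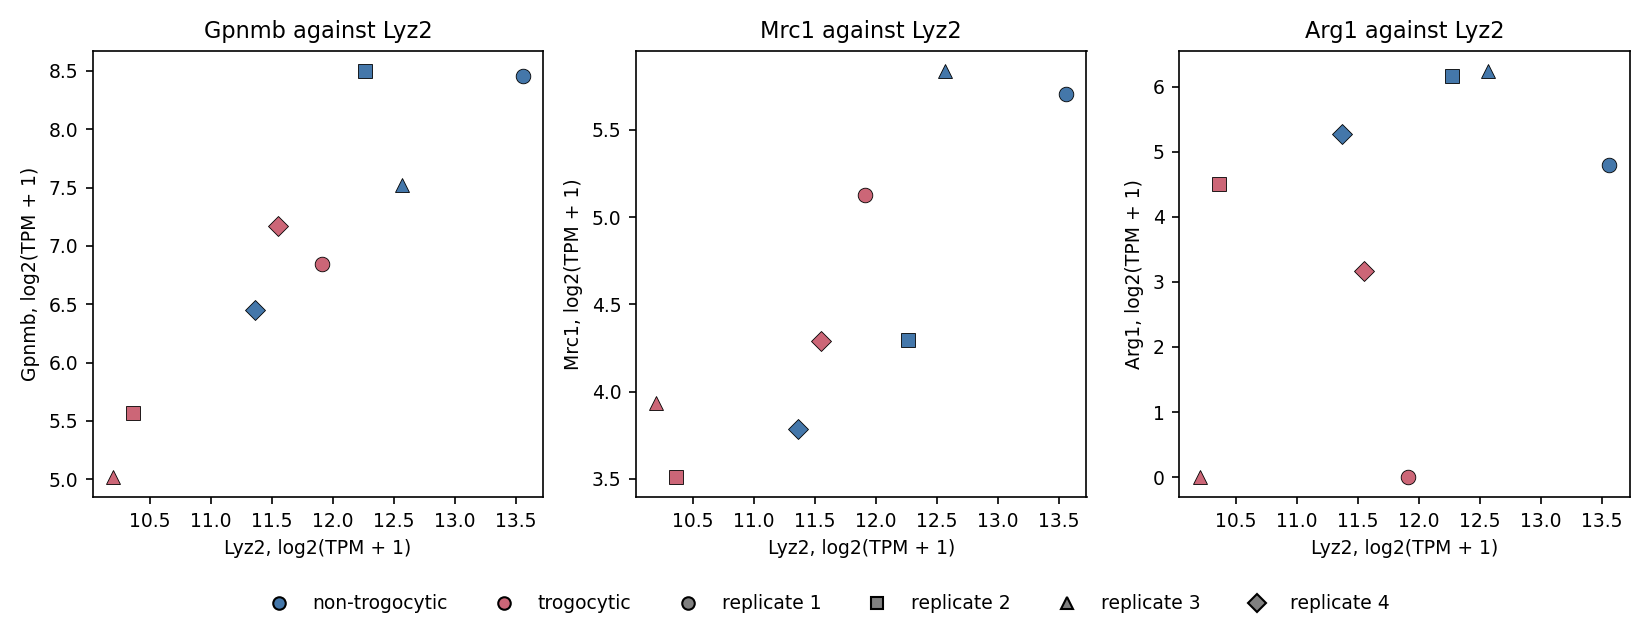
Gpnmb, Mrc1 and Arg1 (y axes) against Lyz2 (x axes) in the 8 libraries, all as log2(TPM + 1), with colour for the group and 1 symbol per replicate. Gpnmb and Mrc1 are high where Lyz2 is high, and Arg1 is listed at 0 in 2 libraries with different Lyz2 levels (3846 and 1175 TPM).

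Among 7122 genes with a mean of at least 5 TPM and no clone-type symbol, those most like Gpnmb with the group means removed were Lcp1, which encodes the leukocyte actin bundler plastin 2 (Pearson's r = 0.98, n = 8), Tmem123 (0.98) and Ctsb, the lysosomal protease cathepsin B (0.98). With group means kept, r was 0.83 for Lcp1, 0.54 for Tmem123 and 0.97 for Ctsb. Ctsb stood at 1012, 1172, 560 and 397 TPM in non-trogocytic and at 646, 226, 168 and 626 TPM in trogocytic replicates 1 to 4. Both genes were highest in non-trogocytic replicate 2 and lowest in trogocytic replicate 3. Those most like Arg1 were Pdgfc (0.98), a growth factor, Rpp25l (0.97) and Pole2 (0.95), none of them a macrophage marker, and with group means kept their r was 0.87, 0.95 and 0.14. Those most like Odc1 were Hsp90b1, the chaperone of the endoplasmic reticulum (0.97), Fam103a1 (0.97) and Tgs1 (0.96), with 0.82, 0.66 and 0.82 when group means were kept. These values are a description, picked as the highest of 7122.

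Around the members, 8 lists covered the transport, synthesis and use of arginine and the signals and markers of macrophage activation. Of 112 listed genes, 110 were matched by symbol and 68 were tested, of which 40 lay below 0 and 28 above. Limma called 1 lower in trogocytic co-cultures and 0 higher, against 0.035% and 0.0175% of all genes. At an unadjusted p below 0.05 there were 3 of the 68, a share close to the 4.59% of all genes. The lists were chosen with earlier results of these libraries known.

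Arginine transport and synthesis showed no called gene. All 5 tested transport genes had a difference below 0, with a median of −0.31. Slc7a2, the inducible cationic amino acid transporter of macrophages, stood at 2.78 ± 1.79 and 1.18 ± 0.991 TPM (SD, n = 4 each; limma adjusted p = 0.9998). Slc3a2, the heavy chain that several amino acid transporters share, stood at 154 ± 113 and 132 ± 33.9 TPM, and its partner Slc7a7 at 45.2 ± 32.7 and 39.3 ± 31.9 TPM. Of 4 tested genes of arginine synthesis and the urea cycle, 3 lay below 0, with a median of −0.11. Ass1 and Asl, which rebuild arginine from citrulline, stood at 25.5 ± 16.1 against 19.3 ± 3.96 TPM and at 44.8 ± 23.1 against 38.0 ± 8.41 TPM. Slc25a13, the mitochondrial aspartate and glutamate carrier, stood at 17.1 ± 8.45 and 7.86 ± 8.86 TPM (−1.62 ± 0.80 SE; limma adjusted p = 0.9998). Otc and Nags were listed at 0 in all 8 libraries, as was Cps1.

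No user of ornithine was called. Of 13 tested polyamine genes besides Odc1, 6 lay above and 7 below 0, with a median of −0.08. Oaz1, the antizyme that binds and removes ornithine decarboxylase, stood at 1191 ± 172 and 1127 ± 148 TPM (−0.08 ± 0.16 SE). Eif5a, the translation factor that polyamines modify, stood at 1253 ± 1168 and 891 ± 352 TPM, and Dohh, an enzyme of that modification, at 9.2 ± 12.8 and 2.24 ± 0.964 TPM. Both were highest in non-trogocytic replicate 2, at 2938 TPM for Eif5a and 28.3 TPM for Dohh. On the path to proline, 5 of 7 tested genes lay below 0, with a median of −0.51 and none called. Oat, which turns ornithine toward proline, stood at 846 ± 232 and 587 ± 172 TPM (−0.54 ± 0.25 SE; limma adjusted p = 0.9998), and Prodh, which degrades proline, at 30.2 ± 11.2 and 19.8 ± 3.77 TPM. P4ha1, a collagen prolyl hydroxylase subunit, stood at 14.3 ± 4.16 and 5.42 ± 5.74 TPM (−1.68 ± 0.66 SE; limma adjusted p = 0.9998).

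Some genes around nitric oxide were present although Nos2 was not, and others were low or at 0. Nos1 was above 0 in 1 library (0.0131 TPM), and Nos3 reached at most 1.78 TPM. Of the cofactor and inhibitor genes, Pts and Qdpr, which make and recycle tetrahydrobiopterin, stood at 65.1 ± 19.6 against 83.4 ± 25.2 TPM and at 96.6 ± 46.9 against 98.8 ± 14.3 TPM. Ddah1, which clears methylarginine inhibitors of the synthases, stood at 84.0 ± 16.8 and 102 ± 37.7 TPM. Of 5 tested genes 3 lay above 0, with a median of 0.14 and none called.

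Transcripts of the cytokines that induce Arg1, Chil3 and Retnla were at or near 0. Il4 was listed at 0 in all libraries, and Il13 was above 0 in 1, trogocytic replicate 2, at 0.52 TPM. Among 9 tested genes of the pathway 7 lay above 0, with a median of 0.28 and none called. Il4ra, also on this list, was too low to be tested, at 0.913 ± 0.688 and 0.319 ± 0.277 TPM. Stat6 was low and lay below 0, at 2.39 ± 0.949 and 2.02 ± 1.15 TPM (−0.22 ± 0.47 SE). Il13ra1, a receptor chain for both cytokines, stood at 16.4 ± 8.67 and 26.3 ± 11.7 TPM. Il2rg, the common gamma chain, stood at 165 ± 135 and 265 ± 170 TPM, and the kinase gene Jak1 at 71.4 ± 43.7 and 86.7 ± 36.1 TPM (limma adjusted p = 0.9998 for Il13ra1, Il2rg and Jak1). Il2rg and Jak1 are also T cell genes, and all 7 tested T cell markers lay above 0, with a summed level of 300 to 871 TPM in non-trogocytic and 516 to 1301 TPM in trogocytic libraries. Their part in these values was not tested.

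Other markers of alternative activation lay mostly below 0, 11 of 14 tested, with a median of −0.54. Spp1, the secreted protein osteopontin, was the 1 gene called. It stood at 2633, 1694, 2618 and 2015 TPM in non-trogocytic and at 573, 707, 806 and 1051 TPM in trogocytic replicates 1 to 4, with no overlap and a difference of −1.52 ± 0.21 (SE; limma adjusted p = 0.0483). The call was lost in 17 of 19 alternatives, whichever library was left out. Mmp12, named after its values were seen, had the largest difference of the list, at 157 ± 76.2 and 17.9 ± 19.6 TPM (−3.40 ± 0.66 SE; limma adjusted p = 0.2542). Cd36, a scavenger receptor for oxidised lipids, stood at 1272 ± 988 and 619 ± 326 TPM (−0.91 ± 0.53 SE). The macrophage and monocyte markers summed to 5040 to 22924 TPM in non-trogocytic and to 2585 to 8366 TPM in trogocytic libraries. Within the trogocytic group the sum was highest in replicate 1. There Spp1 was lowest of the group (573 TPM), while Cd36 (916 TPM) and Mmp12 (47.0 TPM) were highest. The next highest sum of that group was in replicate 4 (6209 TPM), where Spp1 was highest of the group (1051 TPM). In the non-trogocytic group, both the sum (22924 TPM) and Spp1 (2633 TPM) were highest in replicate 1. The part of macrophage content in the values of these genes was not tested. Of the resistin-like family, Retnlg, which neutrophils express, ran from 5.87 to 145 TPM and from 12.3 to 152 TPM, while Retnla and Retnlb were listed at 0 in every library. Mgl2, a close paralog of Clec10a, was also at 0 throughout.

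Markers of classical activation lay on both sides of 0. Of 11 tested genes 6 lay above and 5 below 0, with a median of 0.12 and none called. The receptor chains for interferon gamma, Ifngr1 and Ifngr2, stood at 91.5 ± 34.2 against 104 ± 51.0 TPM and at 35.2 ± 7.17 against 34.7 ± 6.38 TPM. Irf5, a transcription factor of inflammatory macrophages, stood at 9.17 ± 6.70 and 2.87 ± 2.79 TPM (−1.37 ± 0.64 SE; limma adjusted p = 0.9998). Acod1, which makes itaconate in inflamed macrophages, was listed at 0 in all libraries.

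**Figure D4:**
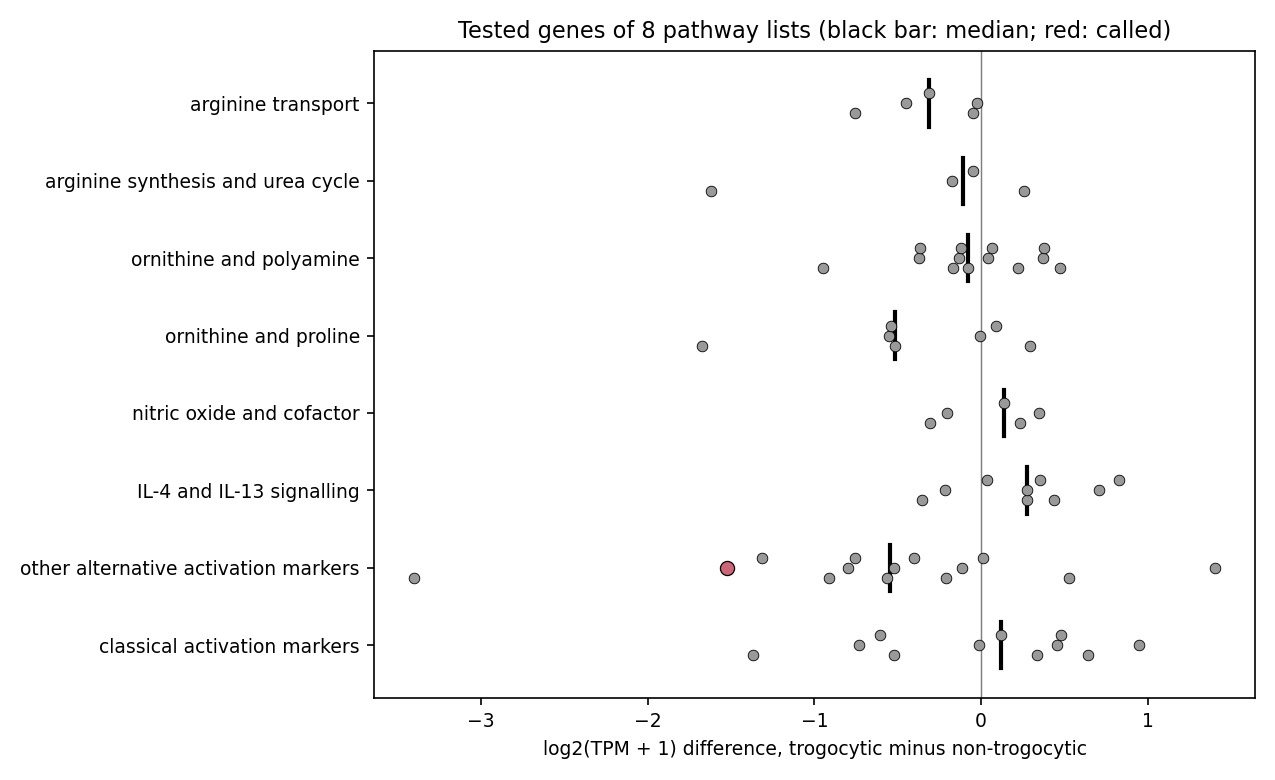
Difference of mean log2(TPM + 1), trogocytic minus non-trogocytic (x axis), of the 68 tested genes of 8 lists (y axis), 1 point per gene with the list median as a black bar. The 1 red point is Spp1, at −1.52. The point farthest to the left is Mmp12, at −3.40.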

How the data were processed

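Polyadenylated RNA of 8 co-cultures was sequenced as paired-end reads of 100 bp, per the labels' protocols. HISAT2, StringTie 1.3.3 and DESeq version 2 are named in the submitters' processing notes, with GRCm38 and mm10 as builds. Per the file headers, each deposited table gives a coverage signal (mean read depth over a gene), an FPKM and a TPM per gene, the last with an equal sum in each library. Read counts were not analysed here. Aligned bases per library were taken as coverage divided by FPKM in genes with 1 transcript, and read pairs behind a value as coverage times transcript length over 200 bases.

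Rows were summed per Gene ID. Genes with at least 1 TPM in 4 or more libraries (11433) were tested with limma 3.58.1 in R 4.3.3 on log2(TPM + 1), allowing the variance to follow the mean. Tests were two-sided, and Benjamini-Hochberg adjusted p-values below 0.05 were called. The test was checked on simulated data. The pseudocount understates the change of low genes. The members, lists, motifs and tests were chosen with earlier results of these data known. Of each list, the tested gene with the smallest p, the 2 with the highest mean and every called gene are named. Where a symbol had more than 1 ID, the ID with the highest mean was used. Of the IDs, 49035 had the same version in GENCODE M21, 49028 of them with the same start and end, among them 9 of the 10 members. Alternatives covered unit, pseudocount, filter, scaling, variance trend, replicate block, gene identity, reference gene and each library left out.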

Additional observations from a re-analysis of the deposited data

Results flagged for a closer look

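In 14 of 107 groups of 4 libraries checked (13.1%), 1 library stood far from the other 3. The cut-off used gives about 5% for independent, normally distributed values. The levels and ratios here share genes and libraries, and some groups hold several zeros, so these shares cannot be compared. Clec10a at 0.808 TPM in non-trogocytic replicate 2, Cd163 at 1.62 TPM in non-trogocytic replicate 3 and Cd163 at 7.62 TPM in trogocytic replicate 1 were the single libraries of their groups above 0. In non-trogocytic replicate 2, Slc3a2 (322 TPM), Dohh (28.3 TPM) and the Gpnmb to Lyz2 ratio (7.33%) were high and Hsp90b1 (671 TPM) was low. Arg1 was low relative to Lyz2 in non-trogocytic replicate 1 (0.223%), the library with the most Lyz2. In trogocytic replicate 2, Arg1 was high relative to Lyz2 (1.65%) and to Csf1r (124), Odc1 was high relative to Csf1r (1522), and Qdpr was low (77.6 TPM). Csf1r rested on about 2.9 read pairs in that library. The Gpnmb to Csf1r ratio was low in trogocytic replicate 3 (49.8), and the Mrc1 to Csf1r ratio was high in non-trogocytic replicate 3 (77.3).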

How the results depend on the processing

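Of 114 differences in level recomputed under the alternatives, 0 moved by more than the spread between replicates, and of 276 differences in ratio 15 did. With 4 libraries per group, leaving 1 out cannot shift a difference by that much. The filter, the variance trend and the replicate block leave a difference unchanged. The 0 was therefore fixed in advance for most values and says little about stability. Arg1, Gpnmb, Mrc1 and Odc1 kept the sign of their level under all 19 alternatives, and Arg2 and Chil3 did not. With Ptprc as reference, the median ratio difference of the 6 tested genes was −1.12, against 0.74 for Lyz2 and 0.37 for Csf1r. Csf1r lay below 1 TPM in 5 libraries, and its median ran from −0.04 (pseudocount of 5) to 0.84 (without trogocytic replicate 3) over the alternatives that kept it as reference. The sign of the ratio to Csf1r turned for Gpnmb with a pseudocount of 0.1, for Mrc1 with FPKM or a pseudocount of 5, and for Chil3 without trogocytic replicate 4. The number of genes called over all genes was 6. It was 3 for FPKM and 3 for a pseudocount of 5, 1 each when all genes were kept or the variance was not allowed to follow the mean, and 0 when both first replicates were left out, where 594 genes had an unadjusted p below 0.05 in limma. The count ran from 0 to 3 when 1 library was left out, with 430 to 684 genes at an unadjusted p below 0.05. The pathway lists held 1 call, and 0 with FPKM, a pseudocount of 0.1 or 5, no filter, median-of-ratios scaling, no variance trend, both first replicates left out, or any 1 library left out. Both counts were 0 with a replicate block, with and without median-of-ratios scaling, where 638 and 654 genes had an unadjusted p below 0.05. The replicate numbers are not stated to pair libraries. The deviations of same-numbered libraries correlated at 0.235, 0.0054, 0.0623 and −0.0932 for replicates 1 to 4. The value for replicate 1 was the highest of all pairs of a non-trogocytic and a trogocytic library. Whether the numbers pair libraries is not settled by these values. The cause of these shifts was not tested. Low depth limits genes of a few TPM, such as Arg2, Chil3 and Csf1r.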
